A study of Oryza sativa with 16 samples.

Results

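The transcripts described here were bright in leaves of both pools of inbred rice lines and dark in leaves of both parents of those lines. They were chosen by their values: a probe set, the group of short probes that reads 1 transcript on the array, was taken when its mean intensity was above 200 in both pools and below 50 in both parents. Of 57194 probe sets that are not controls, 43 met this rule. On the scale of these arrays, 44.7% of all values lay below 50 and 67.1% below 200. Because the levels of the 4 groups made the choice, the contrast of pools with parents is given for these probe sets as a description, and tests are kept to what the rule did not use: the difference between the pools, that between the parents, and other probe sets of the same genes.

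Leaf RNA of Oryza sativa had been hybridised to 16 Affymetrix rice arrays, 4 in each of 4 groups. The aromatic pool, called a bulk by the submitters, held RNA of 6 recombinant inbred lines with extreme scores for a strong scent, and the non-aromatic pool that of 6 lines without scent, all from a cross of Pusa 1121 and Pusa 1342. The parents were Pusa 1121, an aromatic basmati variety, and Pusa 1342, a variety without aroma. All plants were untreated and grown in the field, and leaves were sampled 25 days after the seedlings were transplanted. The submitters call the arrays of a group biological replicates, but nothing says that they came from separate pools or plants, so the p-values rest on a spread over arrays that could be purely technical. A pool gives 1 level for its 6 lines and hides the spread among them. Values after ± are the SD over the 4 arrays of a group throughout.

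Recombinant inbred lines are made by repeated selfing after a cross, so that each line is nearly homozygous and carries at each locus the allele of 1 parent or the other. A transcript level in such a line depends on the allele at the gene itself and on alleles elsewhere in the genome that regulate it. Levels of inbred lines that lie outside the range of both parents are known as transgressive. In rice leaves, as in other plants, transcript levels also follow light, time of day, water supply and pathogens.

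The 43 probe sets were far apart in pools and parents. On the single arrays, the median over the 43 members lay between 642 and 719 in the aromatic pool and between 596 and 767 in the non-aromatic pool, against 11.1 to 13.0 in Pusa 1121 and 10.1 to 21.7 in Pusa 1342. For each of the 43, the lowest of the 8 pool arrays was above the highest of the 8 parent arrays, by 1.68 to 1241 times with a median of 11.6 times. The rule asked only for group means, but by setting them far apart it made this separation of single arrays likely. Over the members, the mean of both pools ran from 212 to 11520 with a median of 793, and that of both parents from 3.16 to 41.2 with a median of 18.2. In 19 members every pool array was above 200 and every parent array below 50. In 18 a parent array reached 50 or more, and in 8 a pool array lay at or below 200. Arrays of whole leaves cannot tell fewer cells of a type from less RNA per cell.

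The mirror pattern was rare. Only 2 probe sets had means above 200 in both parents and below 50 in both pools, against 43 with the pattern described here. With limits of 200 and 100 the counts were 16 against 70, and with 100 and 50 they were 25 against 104. The pair consists of Os.37812.1.S1_s_at (LOC4350947), with 36.1 ± 16.7 in the aromatic pool, 12.5 ± 10.7 in the non-aromatic pool, 632 ± 65.5 in Pusa 1121 and 217 ± 11.5 in Pusa 1342 (SD, n = 4), and Os.50215.1.S1_at, with means of 39.6, 32.3, 210.0 and 351 in the same order. The 2 patterns do not ask the same of a pool. A few bright lines can lift a pool past 200, while a pool below 50 needs low levels in nearly all its lines. What this adds to the imbalance was not tested. Counts with 1 dark group are a different comparison. A pool mixes lines that carry the allele of either parent, so its level can lie between the parents. A probe set dark in 1 parent alone thus need not have pool levels outside the range of the parents. The counts that follow are therefore not a further case of the imbalance above. There were 77 probe sets dark in Pusa 1121 alone and 118 dark in Pusa 1342 alone, while 0 were dark in the aromatic pool alone and 2 in the non-aromatic pool alone. Bright in 1 group alone were 11 probe sets for the aromatic pool, 18 for the non-aromatic pool, 11 for Pusa 1121 and 42 for Pusa 1342. Bright in 1 pool and 1 parent were 8 (aromatic pool and Pusa 1121), 4 (aromatic pool and Pusa 1342), 0 (non-aromatic pool and Pusa 1121) and 9 (non-aromatic pool and Pusa 1342). The labels do not say whether pools and parents were sampled and hybridised together, so a difference of batch between them cannot be told apart from a difference between lines and parents.

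The brightest member by the mean of both pools was Os.26887.1.A1_at, for which the annotation used here lists no gene. Its intensities were 14398, 14579, 13858 and 14962 in the aromatic pool and 8619, 8447, 8921 and 8374 in the non-aromatic pool, against 6.75, 6.34, 1.61 and 1.21 in Pusa 1121 and 4.75, 1.89, 1.34 and 1.42 in Pusa 1342. The pools were far above all 8 parent arrays, and every array of the aromatic pool was above every array of the non-aromatic pool. The probe set name places it in the same sequence cluster as Os.26887.2.A1_a_at, a second member that reads another sequence of that cluster. This one had 6191 ± 280.3 in the aromatic pool, 3820.1 ± 266 in the non-aromatic pool, 19.3 ± 17.4 in Pusa 1121 and 9.89 ± 13.4 in Pusa 1342 (SD, n = 4 each). Both sequences were brighter in the aromatic pool, by 0.75 and 0.70 on the log2 scale (limma adjusted p = 0.00116 and 0.00299 in a fit of the 8 pool arrays, 0.23 and 0.574 in the fit of all 16).

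Os.17916.1.S1_at, also without a listed gene, stood apart from the other members. It read 18302, 17648, 16762 and 17837 in the aromatic pool, 244, 262, 136 and 207 in the non-aromatic pool, and 23.7, 2.69, 3.22 and 17.1 in Pusa 1121 and 4.51, 2.45, 2.1 and 2.42 in Pusa 1342. It was the brightest member in the aromatic pool and only just past the limit of 200 in the non-aromatic pool, where 1 of 4 arrays lay below it. The log2 difference between the pools was 6.41 (SE 0.209, limma adjusted p = 3.62e-05 in a fit of the 8 pool arrays and 1.2e-06 in the fit of all 16). A second probe set of its cluster, Os.17916.2.A1_a_at, did not show this, with 66.4 in the aromatic pool, 35.5 in the non-aromatic pool, 20.3 in Pusa 1121 and 20.7 in Pusa 1342.

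The comparison of the pools asked whether these transcripts also differed between the scented and the unscented pool. With 1 pool of each kind, the comparison cannot speak for scented and unscented lines at large. It was put to limma in 2 fits, each over all 57194 probe sets with Benjamini-Hochberg adjustment. The first holds all 16 arrays and shares 1 estimate of spread among the groups. It called 3 members higher and 2 lower in the aromatic pool and left 38 not passing. Over all 43 members, 8 had an unadjusted p under 0.05, the called ones included. Those called after adjustment were 11.6% of members, against 18.6% of all probe sets (9.49% higher and 9.10% lower) and 41.7% of those above 200 in both pools. The estimate was dominated by the parents for these probe sets: the median SD on the log2 scale was 0.153 within the pools and 1.16 within the parents, and it was larger in the parents for 43 of 43. When only the 8 pool arrays entered the fit, 13 members rose, 9 fell and 21 did not pass. Here 51.2% of members passed, against 14.0% of all probe sets (7.08% higher and 6.88% lower) and 31.6% of those above 200 in both pools. Both fits called 4 members, Os.17916.1.S1_at, Os.21854.2.S1_x_at, Os.32717.1.S1_at and OsAffx.8512.1.S1_at. The fit of all 16 arrays was planned as the main test, and that of the 8 pool arrays as an alternative to it. In what follows, a member said to rise or fall passed in the fit of the 8 pool arrays, and the adjusted p of the other fit stands beside it. The arrays of the pools did not overlap in 30 of the 43 members, 19 with the aromatic pool above and 11 with it below, against 23.4% of all probe sets in either direction. That share covers dim probe sets too, and none was taken for those above 200 in both pools. The median log2 difference was 0.26 over the members and 0.02 over all probe sets.

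Among the members that rose in the aromatic pool, 3 have a gene listed, and 2 of these are next to each other. LOC9270148 (Os.7414.1.S1_at) and LOC4340976 (Os.7244.1.S1_at) are neighbouring coding genes on chromosome 6. LOC4340976 read 4874, 4767, 5058 and 5212 in the aromatic pool and 2127, 2231, 2229 and 2232 in the non-aromatic pool, against 5.59, 25.7, 2.99 and 3.64 in Pusa 1121 and 53.2, 13.8, 9.73 and 36.3 in Pusa 1342. LOC9270148 read 625, 655, 594 and 587 in the aromatic pool and 371, 237, 289 and 345 in the non-aromatic pool, against 18.1, 28.5, 6.88 and 11.6 in Pusa 1121 and 4.15, 1.61, 1.53 and 4.02 in Pusa 1342. In both genes the pools did not overlap, and the log2 differences of 1.17 (SE 0.0781) and 1.00 (SE 0.155) passed on the pool arrays but not on all 16 (adjusted p = 0.000226 and 0.00606 in limma on the pool arrays, 0.194 and 0.0688 on all 16). The third, LOC4350773 (Os.50473.1.S1_at, chromosome 11), read 627, 635, 574 and 656 in the aromatic pool and 358, 335, 294 and 314 in the non-aromatic pool, against 1.27 to 14.6 over the parents. Its log2 difference was 0.94 (adjusted p = 0.00126 in limma on the pool arrays, 0.345 on all 16).

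The other members that rose have no gene listed. Os.32717.1.S1_at read 1134, 1171, 1048 and 1139 in the aromatic pool and 435, 501, 370.3 and 548 in the non-aromatic pool, with 17.4 to 64.9 over the parents. Its log2 difference of 1.29 passed in both fits (limma adjusted p = 0.00136 on the pool arrays and 0.0231 on all 16), but the second call was lost without any 1 of 5 arrays (up to 0.0635 without replicate 3 of the non-aromatic pool). Os.21854.2.S1_x_at read 559, 538, 505 and 646 in the aromatic pool and 185, 237, 198 and 298 in the non-aromatic pool. It had 1.31 (limma adjusted p = 0.00321 and 0.0194), and the second call was lost without any 1 of 3 arrays (up to 0.0548 without replicate 1 of the non-aromatic pool). Os.51634.1.S1_at showed the largest rise after Os.17916.1.S1_at, with 1163 ± 271 in the aromatic pool and 427 ± 121 in the non-aromatic pool (SD, n = 4 each). In both pools its replicate 3 was the highest array (log2 1.46, limma adjusted p = 0.00794 on the pool arrays, 0.293 on all 16).

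The remaining rises were spread over a range of levels. Os.20851.1.A1_at had 854 ± 160.3 in the aromatic pool against 326 ± 49.4 in the non-aromatic pool. Os.50906.1.S1_at had 1563 ± 25.7 against 1004 ± 125 in the same order, and Os.56098.1.S1_at 387 ± 45.2 against 221 ± 60.9. All arrays of the aromatic pool were above those of the non-aromatic pool in each of these, and the log2 differences were 1.38, 0.65 and 0.84 (limma adjusted p = 0.00341, 0.00963 and 0.0375 on the pool arrays, 0.207, 0.523 and 0.379 on all 16). OsAffx.11849.1.S1_s_at had 1024 ± 150.3 in the aromatic pool and 650.5 ± 67.1 in the non-aromatic pool, and its log2 difference of 0.65 was the second smallest among the rises (adjusted p = 0.0237 in limma on the pool arrays, 0.254 on all 16).

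Of the 9 members that fell in the aromatic pool, 3 were lower by more than 2-fold. OsAffx.8512.1.S1_at read 430.4, 416, 339.7 and 303 in the aromatic pool and 1103, 921, 907 and 1052 in the non-aromatic pool, with 2.12 to 9.36 over the parents, a log2 difference of -1.43 (SE 0.147, limma adjusted p = 0.00117 on the pool arrays and 0.00181 on all 16). Os.27766.1.A1_at read 482, 515, 411 and 466 in the aromatic pool and 1309, 1300.3, 1229.6 and 1125 in the non-aromatic pool (log2 -1.41, limma adjusted p = 0.000357 on the pool arrays, 0.0854 on all 16). Os.50256.1.S1_at read 468, 503, 583 and 561 in the aromatic pool and 1367, 1462, 1278 and 1142 in the non-aromatic pool (log2 -1.31, limma adjusted p = 0.000758 on the pool arrays, 0.108 on all 16). The 2 pools were well apart on every array in all 3, and none has a gene listed.

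LOC4344126 (Os.9778.1.S1_at, chromosome 7) and LOC4339148 (Os.51274.1.S1_at, chromosome 5) were the only genes with a listed name among the falls. LOC4344126 read 204, 282, 281 and 235 in the aromatic pool and 499, 311, 532 and 635 in the non-aromatic pool, and LOC4339148 read 719, 613, 655 and 637 and 1023, 972, 901 and 827 in the same order. Over the parents they ran from 1.54 to 68.5 and from 23.8 to 57.2, so that single parent arrays passed 50. Log2 differences were -0.94 and -0.50 (limma adjusted p = 0.0422 and 0.0208 on the pool arrays, 0.521 and 0.262 on all 16). The remaining 4 falls were OsAffx.24102.2.S1_s_at (389.6 in the aromatic pool and 671 in the non-aromatic pool), Os.15521.1.A1_s_at (272 and 444), Os.52528.1.S1_at (654 and 1062) and OsAffx.6161.1.S1_s_at (478 and 748). Their log2 differences ran from -0.78 to -0.64, with limma adjusted p of 0.0152, 0.0151, 0.00757 and 0.0362 on the pool arrays and 0.414, 0.529, 0.456 and 0.527 on all 16. Os.16414.1.S1_x_at passed only in the fit of all 16 arrays (log2 -0.84, limma adjusted p = 0.0394, against 0.0502 on the pool arrays), and its pools overlapped, at 164, 277, 201 and 203 in the aromatic pool and 277, 423, 469 and 346 in the non-aromatic pool. That call was lost in 13 of 24 alternatives, with adjusted p up to 0.219.

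In 21 members the pools did not differ past the threshold on the pool arrays. Os.18480.1.S1_at read 2875, 2835, 2736 and 2960.2 in the aromatic pool and 2956, 3105, 2817 and 2666 in the non-aromatic pool, against 1.94, 6.32, 23.9 and 4.98 in Pusa 1121 and 33, 1.09, 2.07 and 4.11 in Pusa 1342. It combined a high and even level in both pools with dark parents. Os.4354.1.S1_at (1326 ± 91.8 in the aromatic pool and 1417 ± 63.8 in the non-aromatic pool) and Os.15660.1.S1_at (864 ± 115 and 914 ± 79.6) were alike in this, with log2 differences of -0.10 and -0.09. The parents of Os.15660.1.S1_at were dark on every array, from 3.28 to 9.11. A difference that misses the threshold does not show that the pools were equal: Os.8448.1.S1_at had 2589 ± 212 in the aromatic pool and 3207 ± 80.2 in the non-aromatic pool without overlap (log2 -0.31, adjusted p = 0.0683 in limma on the pool arrays).

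Among these 21 are LOC4340998, LOC4350802, LOC4350668 and LOC4343779. LOC4340998 (Os.12008.1.S1_at, chromosome 6) read 2672, 2523, 2468 and 2472 in the aromatic pool and 2170.0, 2159, 2075 and 2032 in the non-aromatic pool, against 7.68, 6.1, 3.42 and 20.0 in Pusa 1121 and 5.43, 3.96, 5.25 and 42.9 in Pusa 1342. Replicate 4 of Pusa 1342 was the highest parent array and still far below every pool array. LOC4350802 on chromosome 11 is read by 2 members that share a target sequence, Os.39305.1.A1_at, with 1555 ± 67.2 in the aromatic pool and 1304 ± 134 in the non-aromatic pool, and Os.39305.1.A1_x_at, with 1637 ± 118 and 1337 ± 130.3. LOC4350668 (Os.35907.1.S1_at, chromosome 11) had 812 ± 94.3 in the aromatic pool and 767 ± 60.2 in the non-aromatic pool. LOC4343779 (Os.18406.1.S1_at, chromosome 7) was dimmer, with 212 ± 19.4 and 257 ± 11.3, and its smallest gap to the parents was the narrowest of the set, since replicate 2 of Pusa 1342 stood at 117 while the other arrays of that parent lay between 20.6 and 24.5.

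The others of the 21 have no gene listed. Os.11119.1.S1_a_at (2034 in the aromatic pool and 1546 in the non-aromatic pool), Os.47668.1.S1_at (2499 and 2045), Os.9580.1.S1_at (1045 and 1315) and Os.25168.1.A1_at (953 and 779) were bright. Dimmer ones, with means between 201 and 448 in the pools, were Os.23097.1.A1_at, Os.39255.1.A1_at, Os.19575.1.A1_at, OsAffx.29087.1.S1_x_at, OsAffx.11993.1.S1_at, OsAffx.14375.1.S1_at and OsAffx.12481.1.S1_at. With 1 exception, Os.16414.1.S1_x_at, every log2 difference among the 21 was between -0.34 and 0.40.

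Some members sat close to the limits of the rule. Just inside were OsAffx.14375.1.S1_at, with a mean of 201 in the non-aromatic pool, OsAffx.12481.1.S1_at, with 209 in the aromatic pool, OsAffx.29087.1.S1_x_at, with 47.4 in Pusa 1342, and Os.16414.1.S1_x_at, with 211 in the aromatic pool. Just outside were Os.53875.1.S1_at (LOC4346841), with 1633 in the aromatic pool and 2221 in the non-aromatic pool but 50.8 in Pusa 1121, and Os.49328.1.S1_at (LOC4334987), with 197 in the non-aromatic pool. OsAffx.10442.1.S1_s_at was left out by 51.0 in Pusa 1121 and Os.29067.2.S1_at by 195 in the non-aromatic pool. Members nearest the limits and probe sets just past them were thus close to the limit in the group that decided, while their other levels differed.

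Between the parents, differences were those of dim values. In the fit of all 16 arrays 3 members were higher and 3 lower in Pusa 1121, and 37 did not pass. Those 6 of 43 compare with 25.8% of all probe sets (12.5% higher and 13.4% lower) and 3.01% of those below 50 in both parents. LOC9270148 had 16.3 ± 9.36 in Pusa 1121 and 2.83 ± 1.45 in Pusa 1342 (SD, n = 4 each), without overlap, a log2 difference of 2.09 (limma adjusted p = 0.000434). It was higher on the aromatic side in pools and parents alike and alone passed with only the 8 parent arrays in the fit (limma adjusted p = 0.0154), where 23.8% of all probe sets passed. Os.19575.1.A1_at and Os.8448.1.S1_at were the other rises, and LOC4343779, LOC4340976 and OsAffx.6161.1.S1_s_at the falls, with log2 differences of 1.80, 1.39, -1.84, -1.66 and -1.75 in that order. Parent arrays did not overlap in 4 of 43 members, 3 with Pusa 1121 above and 1 with it below, against 30.1% of all probe sets (14.6% above and 15.5% below). That share covers bright probe sets too, and none was taken for those below 50 in both parents. The parental minus the pool difference passed in 4 of 43, against 19.4% of all probe sets. For LOC4340976 the call was lost with only the parent arrays (limma adjusted p = 0.183) and the arrays of the parents overlapped, at 2.99 to 25.7 in Pusa 1121 and 9.73 to 53.2 in Pusa 1342.

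Other probe sets on the same arrays gave a reading of the same genes that the rule had not used. By gene name there were 3. A second probe set of LOC4344126, Os.9778.1.S2_at, was far brighter than the member and was not dark in the parents. It had 2722 ± 239 in the aromatic pool, 4758 ± 140.0 in the non-aromatic pool, 1282 ± 99.7 in Pusa 1121 and 214 ± 45.1 in Pusa 1342 (SD, n = 4 each). It was higher in the pools by 2.79 on the log2 scale (limma adjusted p = 1.27e-10), and lower in the aromatic than in the non-aromatic pool, as the member was. For LOC4350802 and LOC4340998 the further probe sets did not pass. Os.11161.1.S1_at of LOC4350802 had 125 in the aromatic pool, 111 in the non-aromatic pool, 179 in Pusa 1121 and 62.7 in Pusa 1342 (log2 0.23, adjusted p = 0.637), and Os.12008.2.S1_at of LOC4340998 had 65.1, 91.2, 93.9 and 82.2 in the same order (log2 -0.52, adjusted p = 0.505). So 1 of the 3 rose, with 0 lower, against 11.7% of all probe sets higher in the pools, 12.3% lower and 24.0% in either direction.

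Most members have no gene listed, and for these the cluster number in the probe set name served instead. With genes and clusters together there were 20 further probe sets, of which 12 were higher in the pools, 0 lower and 8 not passing in limma, with 0 lower also at an unadjusted p under 0.05. Of the 8 that read the target sequence of a member with partly different probes, 7 rose. These can share probes with the member, so they are not fully separate readings. Of the 12 that read another sequence, 5 rose and 7 did not pass. Os.47668.1.S1_x_at, on the sequence of Os.47668.1.S1_at, had 2640.1 ± 209 in the aromatic pool, 1959 ± 141 in the non-aromatic pool, 60.0 ± 24.3 in Pusa 1121 and 18.8 ± 15.7 in Pusa 1342 (log2 6.29, limma adjusted p = 2.05e-08). It missed the rule only by its mean in Pusa 1121.

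Further probe sets did not always order the pools as the member did. Os.25168.2.A1_at, on another sequence of the cluster of Os.25168.1.A1_at, was also bright in the pools and dim in the parents (log2 4.37, limma adjusted p = 2.4e-06). It was the non-aromatic pool that was higher here, with 642 ± 128 in the aromatic pool and 905 ± 64.8 in the non-aromatic pool, where the member had 953 ± 61.8 and 779 ± 33.4. In the cluster of Os.21854.2.S1_x_at, the probe set on the same sequence had 369 ± 23.5 in the aromatic pool and 111 ± 54.5 in the non-aromatic pool and means of 2.26 and 0.673 in Pusa 1121 and Pusa 1342. Os.21854.1.S1_at, on another sequence, ran the other way, with 23.4 ± 20.8 in the aromatic pool and 214 ± 41.3 in the non-aromatic pool, and 11.3 and 60.2 in the parents (log2 of pools over parents 1.43, adjusted p = 0.0548 in limma). Whether these clusters hold 1 gene or several is not given in the sources used here.

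Members had a gene listed less often than the array as a whole. A single gene was listed for 10 of 43, or 23.3%, against 39.2% of all probe sets and 69.9% of those above 200 in at least 1 group. These shares were not tested. The 10 probe sets read 9 genes, all known only by a LOC number. Most members, 35 of 43, came from the part of the array designed on clustered transcripts (names that start with Os), and 8 from gene predictions (OsAffx). The share of gene predictions, 18.6%, lay between 44.6% of all probe sets and 14.8% of those above 200 in some group. Probe sets whose suffix says that their probes match several transcripts (_s_at and _x_at) made up 8 of 43. For these the transcript read is uncertain. Each of these suffixes held 9.30% of members. The share of _s_at was 4.92% of all probe sets and 7.89% of those above 200 in some group. That of _x_at was 12.5% and 14.5% in the same order.

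The 9 genes lie on 4 of the 12 chromosomes. On chromosome 6 are LOC9270148 and LOC4340976, side by side, and LOC4340998, 26 coding genes further on among 2380. On chromosome 11 are LOC4350773 and LOC4350802, 30 coding genes apart among 1891, and LOC4350668, 143 genes from the nearer of them. LOC4343779 and LOC4344126 on chromosome 7 are 360 genes apart, and LOC4339148 is the only gene on chromosome 5. Of the 10 named probe sets 4 are on chromosome 11, which holds 4.76% of all probe sets with 1 gene, but 2 of the 4 read the same gene. The gene order is that of the reference assembly ASM3414082v1 and not of the parents.

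Genes around the members showed no common shift. Within 10 coding genes on either side, 69 other genes were measured, of which 15 were higher in the pools than in the parents, 14 lower and 40 not passing (limma, adjusted p under 0.05, each gene read through its brightest probe set). The share higher was 21.7%, against 20.7% of all 17905 genes, and the median log2 difference was 0.04, against -0.01. LOC4350667, next to LOC4350668, resembled the members in part, with 359 in the aromatic pool, 80.4 in the non-aromatic pool, 20.1 in Pusa 1121 and 33.8 in Pusa 1342 (log2 2.96, limma adjusted p = 5.67e-05). On either side of the adjoining pair on chromosome 6, the nearest measured genes were LOC4340970, with 187 in the aromatic pool, 152 in the non-aromatic pool, 57.8 in Pusa 1121 and 135 in Pusa 1342, and LOC4340977, with 6712 in the aromatic pool, 4237 in the non-aromatic pool, 2332 in Pusa 1121 and 3891 in Pusa 1342. Neither was dark in both parents. LOC4350667 was named after its values were seen.

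None of the 9 genes was matched, by symbol or synonym, to the pathways that were listed. The lists cover heat shock, jasmonate, defence, cold and water stress, clock and flowering, cytochrome P450, terpene, transporter, cell wall, ribosomal, kinase and calcium, and conjugating enzyme genes. They held 443 of the 17905 genes measured and 0 of the 9. With so small a share of genes listed, 0 of 9 says little about the members. The 33 members with no gene listed could not be matched at all.

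The leaf identity of the samples was checked on genes known from green tissue, such as the small subunit of Rubisco and chlorophyll-binding proteins. All 6 measured leaf markers were above 200 in every group, and their summed intensity was 166284 to 169657 in the aromatic pool, 167063 to 172874 in the non-aromatic pool, 161380 to 167548 in Pusa 1121 and 164119 to 170468 in Pusa 1342. For 5 root markers the sums were 1808 to 1946, 3392 to 3758, 1220 to 1557 and 1939 to 2312 in the same order of groups. For 6 seed markers they were 5210 to 5515, 5245 to 5788, 5079 to 5469 and 4846 to 5253. For 10 genes matched to floral or anther markers they were 4355 to 4561, 6124 to 6808, 4603 to 5103 and 9414 to 10153. The name MADS2 matched both LOC4325001 and LOC4343851. LOC4343851 averaged 3312, 4840, 3516 and 5969 in the same order of groups and made up most of each floral sum. No marker was at 0, since the lowest value in the table is 0.201, but the root silicon transporter gene Lsi2 was near it, at means of 2.60, 3.14, 2.86 and 3.77. The summed root markers were lowest in Pusa 1121 and highest in the non-aromatic pool, and of the 5 genes only PIP2-5 and Lsi1 had that order, while IRT1 averaged 114, 108, 152 and 207. The summed floral markers were highest in Pusa 1342, but MADS4, MADS7, MADS8, MADS58 and RTS were not. Their part in the levels of the 43 members was not tested.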

How the data were processed

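Total leaf RNA was isolated with a Qiagen kit and biotin-labelled cRNA was hybridised, per the labels' protocols. GCOS 1.2 and RMA are the tools in the submitters' processing notes, whose roles are not stated, and which build was used is not given in the sources used here. Per array, the authors deposited 1 linear intensity for each probe set, between 0.201 and 45123. Every array has the same median, 64.2, which hides any shift of all transcripts in a group. Detection calls were not used.

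Of 57381 probe sets, 187 controls were left out. Models were fitted to log2(intensity + 1) in limma 3.58.1 under R 4.3.3, with lmFit and eBayes, a mean for each of 4 groups and 12 residual degrees of freedom. Tests were two-sided at a threshold of 0.05 after Benjamini-Hochberg adjustment over 57194 probe sets. The fit was tested on simulated data. Replicate numbers did not pair the arrays: deviations of arrays with the same number correlated at 0.0029 on average, between -0.0071 and 0.0136 over 24 pairs.

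Gene names came from the platform annotation updated with a gene table (assembly ASM3414082v1) that served only for names, chromosomes and gene order. The naming rule asked for the brightest members, the largest differences between the pools, those near the limits and those with further probe sets, and as the set is small all 43 are named. Members and lists were chosen with earlier results of these data known. The window of 10 neighbouring genes and the use of sequence clusters were chosen after seeing the data. Alternatives changed the pseudocount, a filter on dim probe sets, the scaling, the variance model, the replicate block, the arrays in the fit and the limits of the rule. The number of arrays limits the precision. Sequences and promoter motifs were not analysed here.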

Additional observations from a re-analysis of the deposited data

Results flagged for a closer look

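The difference between the aromatic and the non-aromatic side was tested for being unequal in parents and pools. It passed in 4 of 43 members, against 19.4% of all probe sets (limma adjusted p over all probe sets). For Os.17916.1.S1_at the parental minus the pool difference was -5.13 on the log2 scale (pools 6.41, parents 1.28, limma adjusted p = 0.000162). For LOC4340976 (Os.7244.1.S1_at) it was -2.83, with the pools at 1.17 and the parents at -1.66 (limma adjusted p = 0.0228). For OsAffx.11849.1.S1_s_at it was -1.61, with the pools at 0.65 and the parents at -0.97 (limma adjusted p = 0.0351). For Os.32717.1.S1_at it was -1.57, with the pools at 1.29 and the parents at -0.28 (limma adjusted p = 0.0474). The parents were dim and their arrays overlapped in all 4. Their own difference passed in LOC4340976 alone (limma adjusted p = 0.0462), and that call was lost with only the 8 parent arrays (limma adjusted p = 0.183), so no direction is drawn from the parents here.

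In 20 of 172 groups of 4 arrays, 1 array lay far from the other 3 (past Dixon's 95% critical value, on linear intensities). Chance marks about 1 in 20 only where values are normally distributed, which dim linear intensities need not be. No excess over chance is therefore read from this count. Of the 20 groups, 18 were groups of a parent, at low intensities, and 2 were groups of a pool. In the aromatic pool this was Os.51634.1.S1_at at 1569 in replicate 3 against 1008 to 1056, and in the non-aromatic pool Os.7244.1.S1_at at 2127 in replicate 1 against 2229 to 2232. In Pusa 1121 they were Os.11119.1.S1_a_at at 31.6 in replicate 4 against 0.94 to 5.29, Os.27766.1.A1_at at 36.2 in replicate 3 against 5.79 to 10.3 and Os.50256.1.S1_at at 40.5 in replicate 3 against 3.92 to 4.98. Others there were Os.50473.1.S1_at at 13.6 in replicate 2 against 1.27 to 2.41, Os.50906.1.S1_at at 41.3 in replicate 4 against 5.32 to 10.2 and Os.56098.1.S1_at at 31.8 in replicate 3 against 2.61 to 5.43. Others there were Os.7244.1.S1_at at 25.7 in replicate 2 against 2.99 to 5.59, OsAffx.14375.1.S1_at at 10.6 in replicate 1 against 3.59 to 4.33 and OsAffx.29087.1.S1_x_at at 86.6 in replicate 3 against 11.6 to 23.5. In Pusa 1342 they were Os.12008.1.S1_at at 42.9 in replicate 4 against 3.96 to 5.43, Os.17916.1.S1_at at 4.51 in replicate 1 against 2.1 to 2.45 and Os.18406.1.S1_at at 117 in replicate 2 against 20.6 to 24.5. Further ones there were Os.18480.1.S1_at at 33 in replicate 1 against 1.09 to 4.11, Os.26887.1.A1_at at 4.75 in replicate 1 against 1.34 to 1.89 and Os.26887.2.A1_a_at at 29.8 in replicate 1 against 1.84 to 5.21. Further ones there were Os.35907.1.S1_at at 53.4 in replicate 1 against 3.38 to 6.41, Os.50473.1.S1_at at 14.6 in replicate 2 against 1.45 to 3.29 and Os.51274.1.S1_at at 23.8 in replicate 1 against 44 to 48.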

How the results depend on the processing

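Counts of members past the threshold in the aromatic minus non-aromatic pool moved with the arrays and the pseudocount. The 3 higher became 10 with a pseudocount of 16 and 13 with only the 8 pool arrays, and lay between 1 and 4 when each array was left out in turn. The 2 lower became 4, 9, and 1 with no pseudocount, and lay between 1 and 3 without single arrays. Either count moved by over 1.5 times without replicate 1, 3 or 4 of the aromatic pool, any replicate of the non-aromatic pool, replicate 2 or 4 of Pusa 1121, or replicate 2 of Pusa 1342. Os.17916.1.S1_at and OsAffx.8512.1.S1_at passed in 24 of 24 alternatives, with limma adjusted p up to 3.62e-05 and 0.0120.

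Between the parents, the 3 higher became 5 with the filter on dim probe sets and with a variance trend, 1 with only the parent arrays, and 3 to 6 without single arrays. The 3 lower became 1 with a pseudocount of 16, 6 with the filter, 5 with the trend, 0 with only the parent arrays (limma, with 1 at an unadjusted p under 0.05), and 2 to 5 without single arrays. With the replicate number as a block the lower count was 1, and the pool counts were 3 and 2 as without it.

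Of further probe sets by gene, 1 was higher and 0 lower throughout, and by gene or cluster, an alternative chosen after seeing the data, 11 to 14 were higher. The number of members became 19 with every array past its limit, 14 at limits of 400 and 25, 70 at 200 and 100, 104 at 100 and 50, and 40 to 47 without single arrays. The mirror pattern's 2 became 0 in the first 2 of these and at 300 and 50, 16, 25, and 2 to 3. Signs turned in members that did not pass: Os.23097.1.A1_at to -0.0052 without replicate 2 of the aromatic pool, OsAffx.12481.1.S1_at to 0.0257 without that array and to 0.0385 and 0.0316 without replicates 2 and 3 of the non-aromatic pool, Os.15660.1.S1_at to 0.0038 without replicate 3 of the aromatic pool, and Os.18480.1.S1_at to 0.0040 without that array and 0.0203 without replicate 2 of the non-aromatic pool. Without single arrays these differences ran between -0.00522 and 0.203 (Os.23097.1.A1_at), -0.158 and 0.0385 (OsAffx.12481.1.S1_at), -0.137 and 0.0038 (Os.15660.1.S1_at), -0.0531 and 0.0203 (Os.18480.1.S1_at). The cause was not tested. Low intensities limit what can be said of differences between the parents.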

Other observations

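Large differences between pools and parents ran mostly one way on the whole array. Over all 57194 probe sets, on log2(intensity + 1), 520 were higher in the pools by more than 2 and 251 were lower by more than 2. Past 3 the counts were 184 higher and 38 lower, past 4 they were 84 and 3, and past 5 they were 43 and 0. The difference is the mean log2 level of both pools minus that of both parents. A probe set bright in one parent and dark in the other can thus be counted without lying outside the range of the parents. As in the mirror counts, a few bright lines can lift a whole pool. These counts include members and were not tested.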
